A study of Mus musculus with 16 samples.

Results

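The genes described here are the innate immune sensors, inflammasome components, gasdermins, caspases and necroptosis kinases of the mouse small intestinal epithelium, measured in enterochromaffin (EC) cells and in the other epithelial cells. They were chosen by symbol: the Toll-like receptors, the Nlrc, Nlrp and Nlrx receptors, Nod1 and Nod2, the Naip genes, the gasdermins, the caspases, and Pycard, Myd88, Ripk1 to Ripk4, Mlkl and Aim2. This gave 61 of the 20072 genes of the deposited table. The 61 genes comprise 9 genes of Toll-like receptors and Myd88, 6 Naip genes, 19 other NOD-like receptor genes, 5 genes for Aim2, Pycard and the inflammatory caspases, 9 gasdermins, 8 genes with other Casp symbols, and 5 RIP kinases with Mlkl. Casp8ap2 entered by its name only, since it encodes a caspase-8 associated protein and not a caspase. Naip3 and Naip3-ps1 are annotated as pseudogenes. Tlr7, Tlr9 and Nlrp1b were not analysed here.

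RNA was measured in 16 bulk libraries from untreated mice that were 8 to 16 weeks old and carried Tph1-CFP, in which cyan fluorescent protein (CFP) is tied to Tph1, the gene of the enzyme that starts serotonin synthesis. The labels give neither strain nor sex. The 4 groups of 4 libraries were CFP-positive cells of the crypt (crypt EC), CFP-negative cells of the crypt (crypt epi), CFP-positive cells of the villus (villus EC) and CFP-negative cells of the villus (villus epi), each library made from 5000 sorted cells pooled. All groups carried the reporter, so no cells without it were compared. The CFP-negative cells are a mixture of every other cell type in the gate, in which Paneth markers (9 genes) summed to 207629 to 249318 FPKM in crypt epi and absorptive enterocyte markers (10 genes) to 101765 to 146832 FPKM in villus epi. In bulk RNA of such a mixture, fewer cells that express a gene and less of its RNA per cell cannot be told apart. The labels do not say that the libraries of a group came from separate animals, so p-values measure only the spread between these samples, which may be technical.

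Values are FPKM, a count of fragments divided by transcript length and library size, the unit named by the depositors, and the read depth behind them is unknown. Column totals ranged from 731415 to 1415123. The summed level of 8 EC markers was 84739 to 124741 FPKM in villus EC and 87348 to 109551 FPKM in crypt EC, against 620 to 749 FPKM in villus epi and 1435 to 1976 FPKM in crypt epi. Villus epi replicate 2 stood apart, with a mean correlation to its own group of 0.812, against 0.923 to 0.926 for the other 3 libraries of that group and 0.971 to 0.985 elsewhere. Among genes with low values in both libraries, the ratio of its FPKM to that of villus epi replicate 1 peaked at 1.83. For replicates 3 and 4 that peak was at 1.035 and 1.064. Ptprc, the pan-leukocyte gene, was listed at 1.69, 24.6, 1.06 and 1.21 FPKM in villus epi replicates 1 to 4. Where results rest on villus epi replicate 2, values without it are given for many of them.

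Pattern recognition receptors sense microbial products and signs of damage from several compartments of a cell. Toll-like receptors signal from the surface or endosomes through adaptors such as Myd88, while NOD-like receptors and Aim2 act in the cytosol, and some of them assemble inflammasomes. In an inflammasome the adaptor Pycard (ASC) joins a sensor to caspase-1, which matures interleukin-1β and interleukin-18 and cleaves gasdermin D into a membrane pore. In the intestinal epithelium the NAIP and NLRC4 inflammasome is known for the expulsion of infected enterocytes, and caspase-8, Ripk3 and Mlkl set the balance between apoptosis and necroptosis.

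Promoters are shown for 3 genes that differed between EC and epi libraries at both sites: Nlrp6 and Casp4, which were lower in EC, and Tlr2, which was higher. Each is the stretch of 250 bases before the gene's start in RefSeq, 5′ to 3′ on the gene's strand, for build GRCm38.p6. The Nlrp6 stretch is at chr7:140920652-140920901 on the plus strand, the Casp4 stretch at chr9:5308599-5308848 on the plus strand, and the Tlr2 stretch at chr3:83841609-83841858 on the minus strand. The GENCODE gene positions used elsewhere put the start of Casp4 at 5308828 and that of Tlr2 at 83841767, inside these stretches. Part of each of these 2 stretches thus lies within the gene as GENCODE places it. Capitals mark matches to the motifs searched.
Nlrp6: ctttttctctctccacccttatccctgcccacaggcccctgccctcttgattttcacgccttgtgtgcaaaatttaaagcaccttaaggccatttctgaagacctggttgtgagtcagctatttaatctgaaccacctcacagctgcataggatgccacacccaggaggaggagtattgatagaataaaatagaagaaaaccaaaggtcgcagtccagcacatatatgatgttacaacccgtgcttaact
Casp4: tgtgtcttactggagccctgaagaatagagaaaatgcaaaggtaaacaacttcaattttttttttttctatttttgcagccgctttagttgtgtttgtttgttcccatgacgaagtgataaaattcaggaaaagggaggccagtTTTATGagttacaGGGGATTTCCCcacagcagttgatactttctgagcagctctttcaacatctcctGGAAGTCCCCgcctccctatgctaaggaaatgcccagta
Tlr2: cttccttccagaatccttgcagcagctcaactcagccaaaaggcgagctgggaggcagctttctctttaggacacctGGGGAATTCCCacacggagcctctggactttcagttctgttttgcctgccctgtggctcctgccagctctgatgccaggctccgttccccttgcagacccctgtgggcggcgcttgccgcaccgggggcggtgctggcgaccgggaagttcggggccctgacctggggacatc

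Both strands were searched for 4 motifs, and 27 of the 39 tested genes had a promoter entry among 32851 promoters. The HNF4 motif CAAAGTCCA was in none of the 27 and in 0.384% of all promoters. The CDX2 motif CATAAA was in those of Casp4, Ripk3 and Tlr1, that is 3 of the 27, and in 10.8% of all promoters. The interferon-stimulated response element (GAAA, any 2 bases, GAAA) was in that of Myd88 alone, against 2.98% of all promoters. The NF-kB consensus was in those of Casp4, Naip5, Tlr2 and Tlr3, that is 4 of the 27, against 7.25% of all promoters. Those in the Tlr2 stretch overlap each other on both strands, as do 3 of the 4 in the Casp4 stretch, where the other one stands apart nearer to the gene's start. The Nlrp6 stretch holds no match to any of the 4 motifs. A match describes the letters in this window and is not evidence of binding.

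A gene was tested when it reached 1 FPKM in at least 4 libraries, which kept 39 of the 61 genes and 14089 of all genes. Differences were tested on log2(FPKM + 1) with limma in 1 fit of all 16 libraries, with p-values adjusted over all 14089 genes by the Benjamini-Hochberg method. Genes with an adjusted p under 0.05 are referred to as called. Log2 fold changes are on this log2(FPKM + 1) scale, which understates the change of genes with low values. Genes that passed the filter through a single group where they are high had to differ, so the counts below describe the 39 and do not stand for all 61.

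In the crypt, 24 of the 39 tested genes were called between EC and epi, 6 higher and 18 lower in EC. Of all tested genes 43.2% were called, 23.2% higher and 20% lower. The median log2 fold change was -0.60 over the 39, against 0.05 over all tested genes. Without overlap between the libraries of both groups, 7 genes lay above and 20 below crypt epi, beside 59.6% of all genes, 31.3% above and 28.3% below. In the villus, 27 of the 39 were called, 9 higher and 18 lower in EC, beside 62.2% of all genes called, 40.6% higher and 21.6% lower. The median was -0.39 over the 39, against 0.33 over all tested genes. Without overlap, 8 lay above and 14 below villus epi, beside 52.8% of all genes, 35.1% above and 17.8% below. Without villus epi replicate 2 all 27 villus calls were kept. Myd88, Naip5, Naip6, Nlrc4 and Ripk1 were then called as well, each lower in EC. The shares over all genes are not given for that fit. The 39 genes thus had more calls toward lower values in EC than toward higher values at both sites, whereas all genes had fewer. In the crypt all genes also had more lower than higher calls with median-ratio scaling (19.4% higher and 24.1% lower, median -0.08) and with a filter at 5 FPKM (22.7% higher and 23.6% lower). This split moved with the scaling: with every library scaled to the same total, 9 were higher and 11 lower in the crypt, where the median over all genes moved to 0.50. With median-ratio scaling 6 were higher and 20 lower in the villus, where the median over all genes moved to 0.11. The shares over all genes are not given beside either split. Scaling to the same total ended the calls of Casp4, Casp8, Mlkl, Naip3-ps1, Nlrc4 and Tlr3 in the crypt (adjusted p = 0.066 to 0.49) and of Casp8, Casp9, Naip3-ps1, Nlrp9b and Nlrx1 in the villus (0.055 to 0.73). Median-ratio scaling ended those of Casp8ap2, Naip2 and Ripk4 in the villus (0.055 to 0.12), and a fit of the 2 villus groups only those of Casp8, Casp8ap2, Casp9, Nlrx1 and Ripk4 (0.055 to 0.096).

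**Figure D1:**
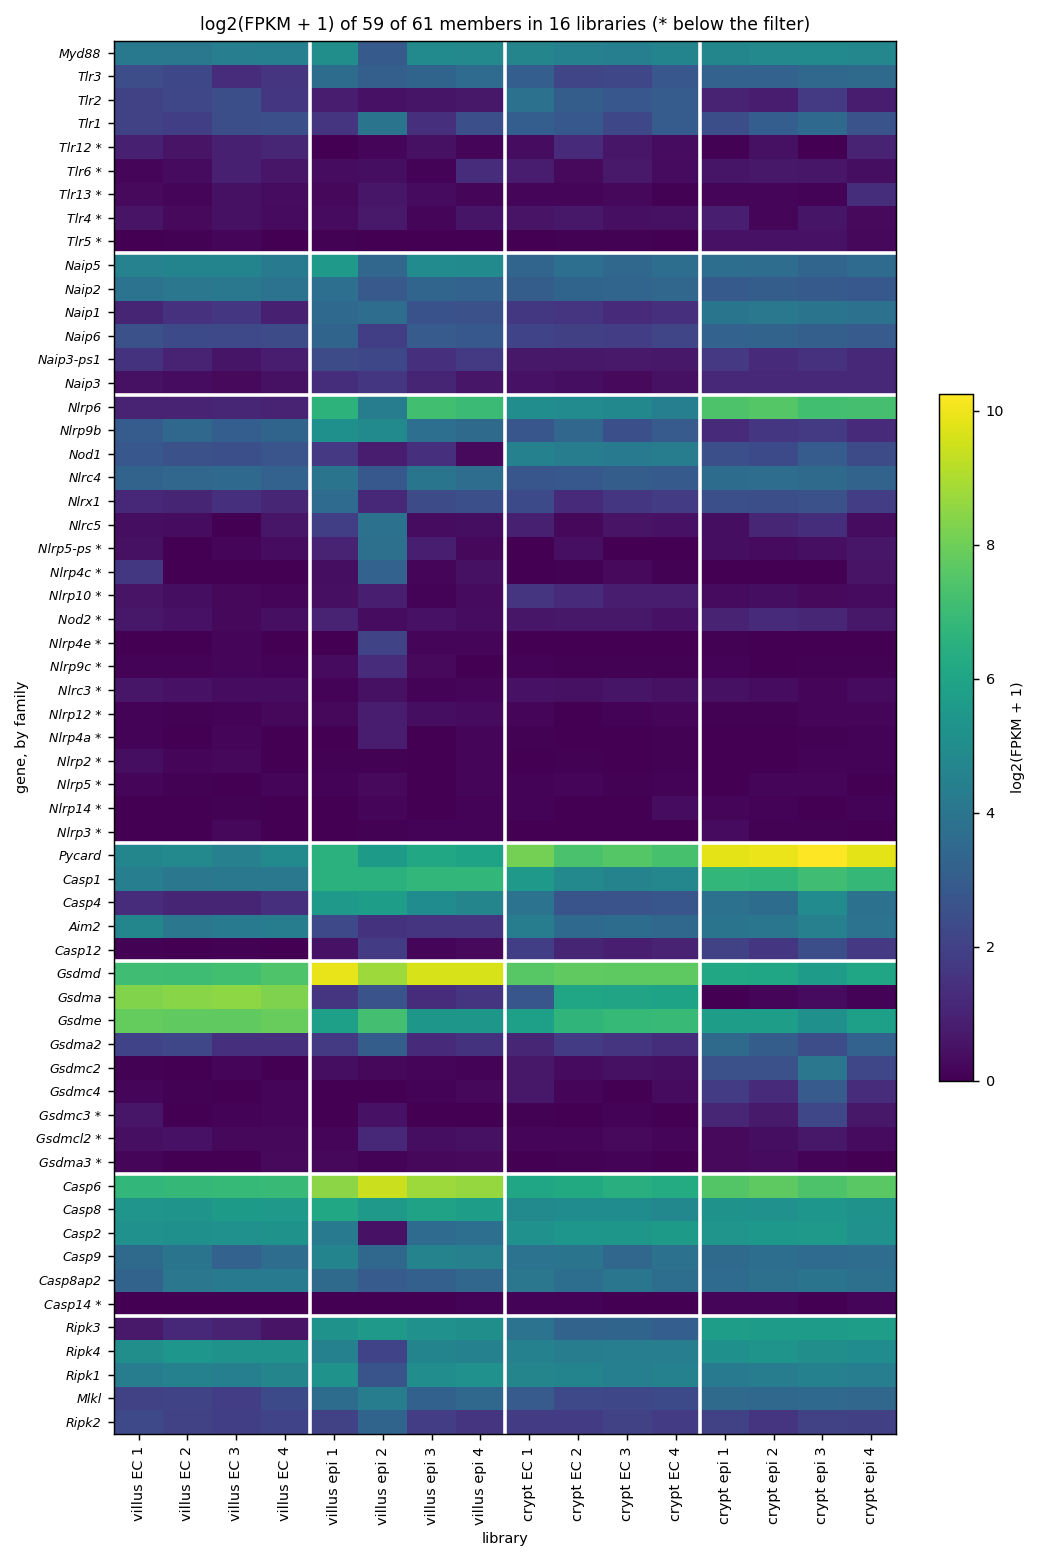
Each row is one of 59 of the 61 genes, grouped by family, and each column one of the 16 libraries; colour gives log2(FPKM + 1), and an asterisk marks the 22 genes below the filter. Higher values are brighter. Nlrp6, Ripk3, Casp4 and Naip1 are darker in the villus EC columns than in the epi columns, while Gsdma is brighter in the EC columns.

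The surface receptors were few and low. Tlr2, which recognises bacterial lipoproteins together with Tlr1 or Tlr6, was the Toll-like receptor gene called higher in EC at both sites. It was listed at 13.3, 7.24, 5.89 and 6.85 FPKM in crypt EC, against 1.04, 0.725, 2.31 and 0.753 FPKM in crypt epi (log2 fold change 2.07 ± 0.26 (SE), adjusted p = 9.4e-06). In the villus it was at 2.90, 3.54, 4.59 and 2.10 FPKM in EC, against 0.710, 0.413, 0.501 and 0.572 FPKM in epi (1.44 ± 0.26 (SE), adjusted p = 0.00017). Every EC library was above every epi library of its site. Its partner Tlr1 overlapped between EC and epi at both sites, with 7.38, 6.05, 3.73 and 6.87 FPKM in crypt EC against 4.48, 7.30, 10.4 and 5.21 FPKM in crypt epi, and was called at neither site (log2 fold change -0.14 in the crypt and -0.15 in the villus).

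Tlr3, the endosomal receptor for double-stranded RNA, was lower in EC. It had 7.26, 3.36, 3.59 and 5.98 FPKM in crypt EC, against 8.33, 8.47, 10.02 and 10.8 FPKM in crypt epi (-0.83 ± 0.26 (SE), adjusted p = 0.018), a call that was lost without crypt EC replicate 2 or 3 or crypt epi replicate 4 (adjusted p = 0.052 to 0.066). It had 4.33, 3.66, 1.49 and 1.91 FPKM in villus EC, against 11.2, 7.54, 8.91 and 10.9 FPKM in villus epi (-1.52 ± 0.26 (SE), adjusted p = 0.00012). The groups did not overlap at either site. Myd88, the adaptor of most Toll-like receptors, had 16.5, 16.5, 19.99 and 20.8 FPKM in villus EC, against 32.7, 6.48, 29.0 and 27.3 FPKM in villus epi, where replicate 2 lay far below the other 3. It was not called (-0.15, adjusted p = 0.72), and without that library it was lower in EC (-0.66, adjusted p = 3.4e-05). Tlr4, the receptor for lipopolysaccharide, and Tlr5, the receptor for flagellin, did not pass the filter and reached at most 0.809 and 0.428 FPKM in any library. Tlr6, Tlr12 and Tlr13 also fell below it, with maxima of 1.49, 1.36 and 1.502 FPKM.

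The peptidoglycan sensor Nod1 was higher in EC at both sites. It had 21.8, 19.0, 18.2 and 19.0 FPKM in crypt EC, against 4.69, 4.00, 6.97 and 4.10 FPKM in crypt epi (1.81 ± 0.26 (SE), adjusted p = 3.5e-05), and 5.87, 4.78, 4.63 and 5.61 FPKM in villus EC, against 2.24, 0.773, 1.64 and 0.187 FPKM in villus epi (1.59 ± 0.26 (SE), adjusted p = 6.4e-05). The libraries of EC and epi did not overlap at either site. Nod2, the other peptidoglycan sensor and one known from Paneth cells, reached at most 1.34 FPKM and was not tested. Ripk2, the kinase through which both signal, had 2.46 to 3.08 FPKM in crypt EC against 1.91 to 3.11 FPKM in crypt epi, and was called in neither comparison of EC and epi.

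Nlrp6, a sensor known for its role in goblet cell secretion and antiviral defence of the gut, showed the most negative log2 fold change of the 39 genes at both sites. It was listed at 31.7, 30.01, 26.6 and 20.5 FPKM in crypt EC, against 167, 184, 142 and 149 FPKM in crypt epi (-2.53 ± 0.43 (SE), adjusted p = 0.00021). In villus EC it was at 1.00, 0.968, 1.12 and 0.994 FPKM, against 99.4, 19.6, 139.6 and 126 FPKM in villus epi (-5.27 ± 0.43 (SE), adjusted p = 4e-08). All 4 villus EC libraries lay near 1 FPKM, and the lowest villus epi library, replicate 2, was still above all of them. Goblet markers, summed over 8 genes, were at 2408 to 3653 FPKM in crypt EC against 60734 to 73318 FPKM in crypt epi, and at 10588 to 14673 FPKM in villus EC against 19556 to 38452 FPKM in villus epi. Paneth markers, summed over 9 genes, were at 6923 to 10197 FPKM in crypt EC against 207629 to 249318 FPKM in crypt epi. In the villus they were at 299 to 645 FPKM in EC against 298 to 606 FPKM in epi. Absorptive enterocyte markers, over 10 genes, were at 411 to 1283 FPKM in crypt EC against 2851 to 8888 FPKM in crypt epi. In the villus those were at 1717 to 2675 FPKM in EC against 101765 to 146832 FPKM in epi. The part of any of these markers in the Nlrp6 difference was not tested.

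The NAIP proteins bind flagellin or parts of bacterial secretion systems and activate Nlrc4. Of the 6 Naip genes, all of which were tested, 4 were lower and 0 higher in EC in the crypt, and 3 were lower and 1 higher in the villus. Of all tested genes, 20% were lower and 23.2% higher in the crypt, and 21.6% lower and 40.6% higher in the villus. Naip1, a sensor of the secretion needle, had 2.12, 1.92, 1.34 and 1.65 FPKM in crypt EC, against 14.8, 16.0, 14.6 and 13.6 FPKM in crypt epi (-2.52 ± 0.25 (SE), adjusted p = 8.2e-07), and 1.11, 1.78, 2.04 and 0.871 FPKM in villus EC, against 10.5, 11.8, 5.03 and 4.90 FPKM in villus epi (-1.82 ± 0.25 (SE), adjusted p = 1.2e-05). Naip1 did not overlap between EC and epi at either site. Naip6, a flagellin sensor, had 3.19, 2.87, 2.64 and 3.36 FPKM in crypt EC, against 8.39, 8.66, 7.65 and 6.80 FPKM in crypt epi (-1.14 ± 0.23 (SE), adjusted p = 0.00083). In the villus it was called lower in EC only without villus epi replicate 2 (-0.39, adjusted p = 0.16 with it; -0.67, adjusted p = 0.0004 without it). Naip2, a sensor of the secretion rod, was the member higher in villus EC, with 14.0, 15.8, 16.1 and 13.9 FPKM, against 12.4, 6.37, 9.31 and 8.32 FPKM in villus epi (0.69 ± 0.17 (SE), adjusted p = 0.0021). Naip5, the other flagellin sensor, had 22.5, 23.8, 23.8 and 18.1 FPKM in villus EC and 44.2, 9.35, 29.9 and 28.2 FPKM in villus epi, and was not called in the villus (-0.15, adjusted p = 0.70) unless replicate 2 of villus epi was left out (-0.59, adjusted p = 0.0038). The pseudogenes Naip3 and Naip3-ps1 were low and were called lower in EC at both sites, Naip3-ps1 in the crypt not without crypt epi replicate 1 (adjusted p = 0.057). Naip3 passed the filter through epi libraries only, with at most 0.400 FPKM in crypt EC and 0.373 FPKM in villus EC. It therefore had to differ, and its place among the lower Naip genes counted above is a description. These genes are near-identical neighbours on chromosome 13 (Naip1 at chr13:100407764-100452869, Naip2 at chr13:100144063-100202092, mm10), so the division of reads between them is uncertain.

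Nlrc4, which the NAIP proteins activate, had 5.76, 6.18, 7.22 and 6.59 FPKM in crypt EC, against 11.3, 11.7, 10.8 and 8.73 FPKM in crypt epi. The groups did not overlap (-0.64 ± 0.21 (SE), adjusted p = 0.023), and the call was lost without crypt EC replicate 1 or 2 or crypt epi replicate 1 or 2 (adjusted p = 0.053 to 0.061). In the villus it was not called with all libraries (-0.27, adjusted p = 0.29), and was lower in EC without villus epi replicate 2 (-0.53, adjusted p = 0.0014). Nlrp9b, a sensor of viral double-stranded RNA in mouse gut epithelium, moved in opposite directions at the 2 sites. It had 5.67, 9.51, 4.70 and 6.73 FPKM in crypt EC, against 1.41, 2.11, 2.31 and 1.42 FPKM in crypt epi (1.42 ± 0.32 (SE), adjusted p = 0.0022), but 6.83, 9.95, 7.37 and 8.95 FPKM in villus EC, against 34.6, 29.4, 12.3 and 10.6 FPKM in villus epi (-1.14 ± 0.32 (SE), adjusted p = 0.0066). Nlrp9b belongs to a family of close copies, so its values carry the same uncertainty as those of the Naip genes. Nlrx1, a mitochondrial member of the family, was lower in villus EC (1.08 to 1.67 FPKM, against 1.203 to 11.1 FPKM in villus epi; -1.20 ± 0.38 (SE), adjusted p = 0.013), with overlap through villus epi replicate 2. Without that library the log2 fold change of Nlrx1 was -1.62 (adjusted p = 0.00013). Nlrc5, a regulator of MHC class I genes, was called in neither comparison and reached 13.5 FPKM in villus epi replicate 2.

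Nlrp3, the best studied inflammasome sensor of macrophages, reached at most 0.235 FPKM in any of the 16 libraries. Of the other 12 NOD-like receptor genes below the filter, Nlrp4c, Nlrp4e and Nlrp5-ps reached their highest values, 8.24, 3.30 and 12.8 FPKM, in villus epi replicate 2. Nlrp10 had 0.763 to 1.89 FPKM in crypt EC against 0.191 to 0.289 FPKM in crypt epi. The remaining 8, which include Nod2, had maxima from 0.195 to 1.47 FPKM.

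**Figure D2:**
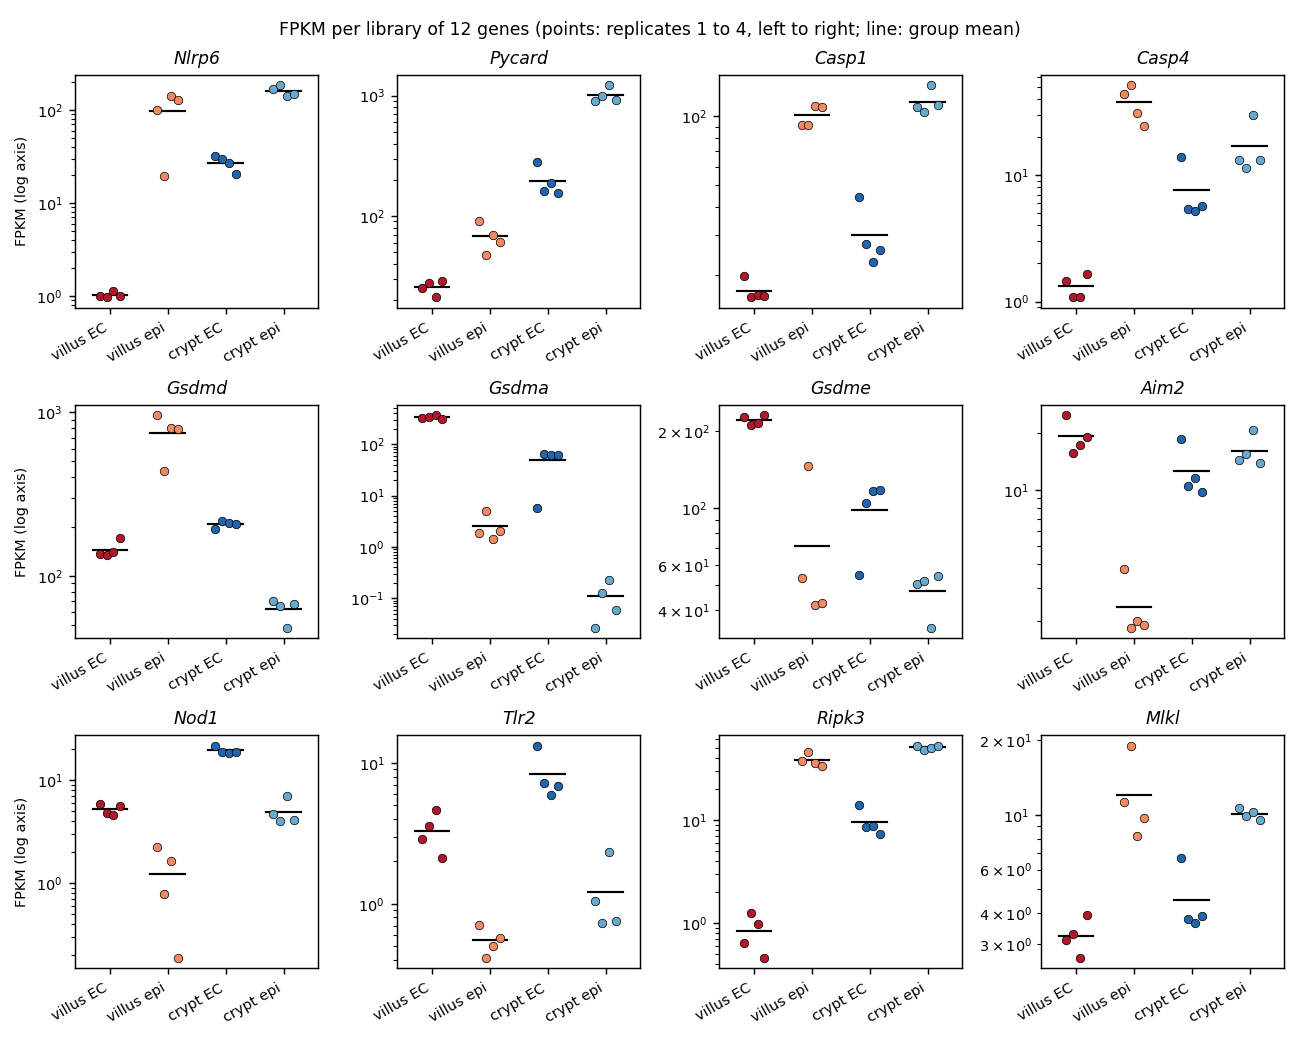
Each panel gives 1 of 12 genes, with FPKM per library on a log axis, a point per replicate and a line at the group mean, for the 4 groups along the x axis. Gsdma lies at 309 to 364 FPKM in villus EC and at 1.44 to 5.09 FPKM in villus epi, and Nlrp6 near 1 FPKM in villus EC.

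Pycard and Casp1 were lower in EC at both sites. Pycard, the adaptor that links sensors to caspase-1, had 279, 159.7, 189 and 154 FPKM in crypt EC, against 908, 985, 1223 and 917 FPKM in crypt epi (-2.39 ± 0.21 (SE), adjusted p = 1.9e-07). Villus levels of Pycard were 25.3, 27.5, 21.0 and 28.9 FPKM in EC, against 91.6, 47.6, 70.0 and 61.3 FPKM in epi (-1.33 ± 0.21 (SE), adjusted p = 4.5e-05). Casp1, the protease of the inflammasome, had 44.3, 27.5, 22.7 and 25.9 FPKM in crypt EC, against 109.7, 104, 137 and 112 FPKM in crypt epi (-1.94 ± 0.17 (SE), adjusted p = 2.5e-07). In villus EC it had 19.7, 15.9, 16.4 and 16.2 FPKM, against 91.9, 91.7, 111 and 109 FPKM in villus epi (-2.50 ± 0.17 (SE), adjusted p = 5.7e-09). Neither gene overlapped between EC and epi at either site, and the calls of both genes at both sites held in all 27 alternative settings.

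Casp4, the mouse caspase-11 that binds intracellular lipopolysaccharide, was lower in villus EC by the largest margin among the inflammatory caspases. It had 1.46, 1.08, 1.08 and 1.66 FPKM in villus EC, against 44.0, 51.3, 30.9 and 24.6 FPKM in villus epi (-4.01 ± 0.33 (SE), adjusted p = 4.2e-08). In the crypt it had 14.0, 5.37, 5.19 and 5.64 FPKM in EC, against 13.2, 11.3, 29.6 and 13.2 FPKM in epi (-1.07 ± 0.33 (SE), adjusted p = 0.016). Crypt EC replicate 1 overlapped with crypt epi, and crypt epi replicate 3 lay far above its group. That crypt call was lost without crypt EC replicate 2 or 3 or crypt epi replicate 3 (adjusted p = 0.051 to 0.061), and with libraries scaled to the same total (-0.58, adjusted p = 0.18). Casp12, which lies beside Casp1 and Casp4 on chromosome 9, was low and was called in neither comparison (0.794 to 2.72 FPKM in crypt EC against 2.05 to 4.45 FPKM in crypt epi). Without villus epi replicate 2 it was lower in crypt EC (-0.74, adjusted p = 0.008).

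Aim2, a sensor of cytosolic DNA, was the exception among these 5 genes. It had 25.0, 15.7, 17.4 and 19.1 FPKM in villus EC, against 3.77, 1.84, 2.01 and 1.89 FPKM in villus epi (2.60 ± 0.23 (SE), adjusted p = 9.2e-08), with no overlap. In the crypt it had 18.8, 10.5, 11.51 and 9.76 FPKM in EC and 14.4, 15.5, 20.8 and 13.9 FPKM in epi, which overlapped and were not called (-0.36, adjusted p = 0.23). In crypt EC, replicate 1 was the highest library for Aim2, Casp1, Casp4, Casp12 and Pycard alike.

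The gasdermins form the membrane pores of pyroptosis once a protease releases their amino-terminal part. Gsdma showed the largest log2 fold change of the 39 genes, toward EC, at both sites. It had 317, 344, 364 and 309 FPKM in villus EC, against 1.88, 5.09, 1.44 and 2.02 FPKM in villus epi (6.63 ± 0.56 (SE), adjusted p = 5.6e-08), and 5.67, 65.9, 62.1 and 61.4 FPKM in crypt EC, against 0.0270, 0.128, 0.226 and 0.0600 FPKM in crypt epi (5.04 ± 0.56 (SE), adjusted p = 2.9e-06). Crypt EC replicate 1 was far below the other 3 crypt EC libraries, yet above every crypt epi library. Gsdma (chr11:98664351-98677708, mm10) lies beside its near copies Gsdma2 and Gsdma3 on chromosome 11, and reads shared between them may have been divided by the authors' counting. Gsdma2 had 1.14, 2.58, 1.95 and 1.56 FPKM in crypt EC, against 10.6, 7.15, 4.40 and 8.48 FPKM in crypt epi (-1.60 ± 0.35 (SE), adjusted p = 0.0017), and Gsdma3 reached at most 0.229 FPKM.

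Gsdmd, the pore former cleaved by caspase-1 and caspase-11, was higher in EC in the crypt and lower in EC in the villus. In the crypt it had 192, 217, 209.9 and 208 FPKM in EC, against 70.4, 65.7, 48.2 and 67.1 FPKM in epi (1.71 ± 0.20 (SE), adjusted p = 4e-06). Villus levels were 136, 134, 139.6 and 169 FPKM in EC, against 957, 435, 805 and 788 FPKM in epi (-2.31 ± 0.20 (SE), adjusted p = 6.1e-08). No library overlapped at either site. The villus epi libraries were the highest of the 16 and the crypt epi libraries the lowest. Between villus EC and crypt EC the gene was not called (-0.52, adjusted p = 0.068), and it was called lower in villus EC without villus epi replicate 2 (adjusted p = 0.0015). Absorptive enterocyte markers, summed over 10 genes, moved in the same direction across the epi groups, with 101765 to 146832 FPKM in villus epi and 2851 to 8888 FPKM in crypt epi, and their part in the Gsdmd difference was not tested.

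Gsdme, another pore-forming member, had 226, 212, 214 and 231 FPKM in villus EC, against 53.6, 146, 42.1 and 42.6 FPKM in villus epi (1.83 ± 0.34 (SE), adjusted p = 0.00021). In the crypt it had 54.9, 105, 116 and 118 FPKM in EC, against 50.7, 51.9, 34.2 and 54.2 FPKM in epi (0.99 ± 0.34 (SE), adjusted p = 0.027), and this call was lost without crypt EC replicate 2, 3 or 4 or crypt epi replicate 3 (adjusted p = 0.064 to 0.083). The Gsdmc genes, near-identical neighbours on chromosome 15, were found almost wholly in the crypt epi libraries. Gsdmc2 had 0.599, 0.233, 0.374 and 0.304 FPKM in crypt EC, against 4.86, 4.78, 15.6 and 3.51 FPKM in crypt epi. Gsdmc4 had 0.584, 0.1004, 0 and 0.246 FPKM in crypt EC, against 2.54, 1.33, 6.65 and 1.46 FPKM in crypt epi. Both genes passed the filter through the 4 crypt epi libraries only and so had to differ from them, and their values are given as a description. In both, as in Gsdmc3, which did not pass the filter (1.14, 0.657, 3.52 and 0.591 FPKM in crypt epi), replicate 3 of crypt epi was the highest. In the villus, Gsdmc2 had 0 to 0.110 FPKM in EC and 0.0799 to 0.304 FPKM in epi. Gsdmcl2 reached at most 1.202 FPKM.

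Of the apoptotic caspases, Casp6 and Casp8 were called lower in EC at both sites and Casp9 in the villus, while Casp2 was called higher in villus EC. Casp6, an executioner caspase and the most abundant in FPKM of the group in all 4 groups' means, had 64.9, 74.97, 84.7 and 77.9 FPKM in crypt EC, against 183, 207, 167 and 199.96 FPKM in crypt epi (-1.31 ± 0.17 (SE), adjusted p = 1.1e-05). Villus levels of Casp6 were 109, 114, 116 and 119 FPKM in EC, against 356, 691, 425 and 397 FPKM in epi (-1.97 ± 0.17 (SE), adjusted p = 5.5e-08). Casp6 was lower in every EC library than in any epi library of the same site.

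Casp8, the initiator of the death receptor pathway and a brake on necroptosis, had small differences: 29.4 ± 1.94 FPKM in crypt EC against 38.0 ± 2.47 FPKM in crypt epi, and 42.9 ± 4.01 FPKM in villus EC against 56.5 ± 10.1 FPKM in villus epi (SD, n = 4 each). The log2 fold changes were -0.36 ± 0.13 (SE), adjusted p = 0.034 in the crypt and -0.38 ± 0.13 (SE), adjusted p = 0.018 in the villus. The crypt call was lost without crypt EC replicate 1, 2 or 4 or crypt epi replicate 1, 3 or 4 (adjusted p = 0.054 to 0.098), and the villus call without villus EC replicate 1 or 2 or villus epi replicate 1 (adjusted p = 0.052 to 0.062). With libraries scaled to the same total the direction turned, to 0.17 in the crypt and 0.25 in the villus, neither of them called.

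Casp9, the initiator of the mitochondrial pathway, was lower in villus EC (8.35 to 14.3 FPKM, against 9.76 to 23.9 FPKM in villus epi; -0.69 ± 0.24 (SE), adjusted p = 0.022). This call was lost without villus EC replicate 3 or villus epi replicate 1, 3 or 4 (adjusted p = 0.057 to 0.075), while without replicate 2 of villus epi, its lowest library there, the log2 fold change was -0.97 (adjusted p = 4.6e-05). Casp2, a caspase linked to genotoxic stress, was higher in villus EC. It had 35.2, 34.7, 35.1 and 36.1 FPKM there, against 17.5, 0.408, 11.1 and 12.4 FPKM in villus epi (2.17 ± 0.55 (SE), adjusted p = 0.003), where replicate 2 was the lowest. Without that library the log2 fold change was 1.33 (adjusted p = 1.8e-07). In the crypt it had 35.4 to 47.1 FPKM in EC and 35.7 to 45.0 FPKM in epi, and was not called. Casp8ap2 was higher in villus EC (8.57 to 18.2 FPKM, against 6.63 to 10.8 FPKM in villus epi; 0.69 ± 0.21 (SE), adjusted p = 0.01), with overlap. Casp14, a caspase of the skin, reached at most 0.143 FPKM.

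Necroptosis is executed by Ripk3, which phosphorylates the pore former Mlkl. Ripk3 was lower in EC at both sites, with 14.0, 8.57, 8.77 and 7.28 FPKM in crypt EC, against 52.4, 48.0, 49.8 and 52.4 FPKM in crypt epi (-2.31 ± 0.19 (SE), adjusted p = 8.1e-08). Villus levels of Ripk3 were 0.640, 1.26, 0.992 and 0.464 FPKM in EC, against 37.4, 45.1, 35.9 and 33.1 FPKM in epi (-4.41 ± 0.19 (SE), adjusted p = 2.6e-11). The highest villus EC library was far below the lowest villus epi library. Mlkl had 6.67, 3.80, 3.65 and 3.89 FPKM in crypt EC, against 10.7, 9.88, 10.3 and 9.498 FPKM in crypt epi (-1.04 ± 0.23 (SE), adjusted p = 0.0015), and 3.11, 3.28, 2.63 and 3.94 FPKM in villus EC, against 11.3, 19.1, 8.20 and 9.69 FPKM in villus epi (-1.57 ± 0.23 (SE), adjusted p = 2e-05). Neither gene overlapped between EC and epi.

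Ripk1, the kinase upstream of both survival and death signals, was not called in the crypt (20.8 to 24.4 FPKM in EC, 17.5 to 21.4 FPKM in epi; log2 fold change 0.21, adjusted p = 0.72). In the villus it had 19.1, 21.8, 20.6 and 24.6 FPKM in EC and 37.0, 5.35, 31.8 and 35.7 FPKM in epi, and was called lower in EC only without villus epi replicate 2 (-0.051, adjusted p = 0.92 with it; -0.67, adjusted p = 2e-05 without it). Ripk4, a kinase known from keratinocyte differentiation, had 32.6, 40.6, 37.8 and 36.9 FPKM in villus EC, against 21.6, 3.24, 23.5 and 21.5 FPKM in villus epi (1.32 ± 0.41 (SE), adjusted p = 0.01). Without villus epi replicate 2 the log2 fold change was 0.71 (adjusted p = 5.2e-06).

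**Figure D3:**
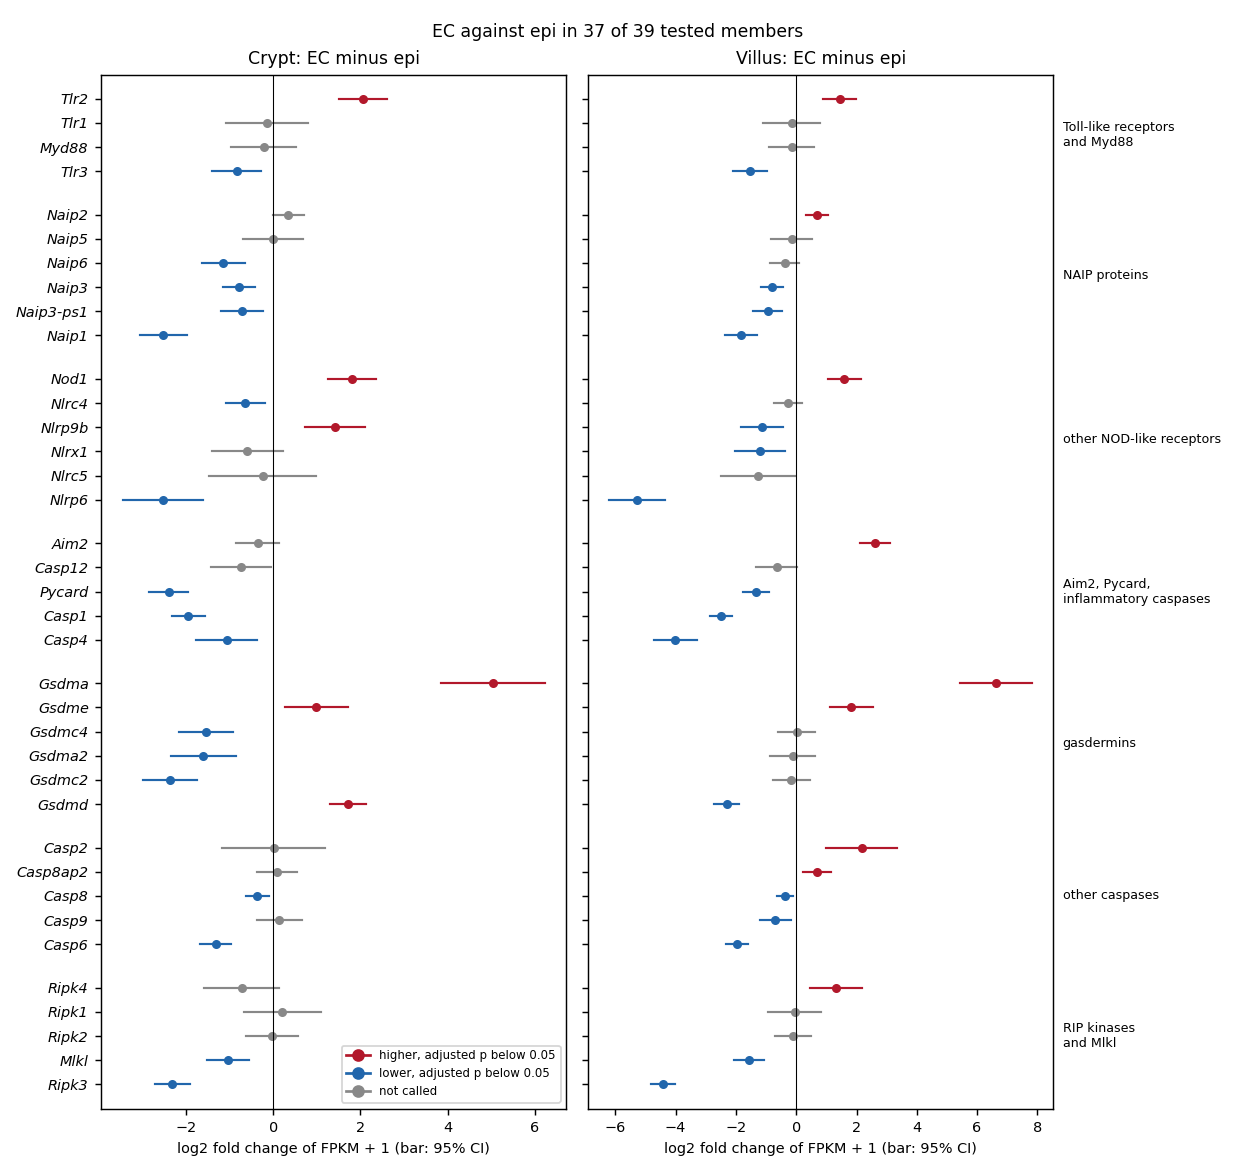
Log2 fold change of EC over epi with its 95% confidence interval for 37 of the 39 tested genes, in the crypt and in the villus, with red for genes called higher in EC, blue for genes called lower and grey for the rest. Gsdma reaches 5.04 in the crypt and 6.63 in the villus, Nlrp6 falls at -2.53 and -5.27, and Gsdmd changes side.

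Between sites within EC cells, 15 of the 39 genes were called, 6 higher and 9 lower in the villus. Of all tested genes 26.5% were called, 10.3% higher and 16.2% lower. Without overlap between the sites, 9 lay above and 11 below crypt EC, beside 45.2% of all genes, 19% above and 26.2% below. Without villus epi replicate 2, which enters this comparison only through the shared spread, 10 were higher and 12 lower, beside 19.2% and 27.4% of all genes in the same fit. Pycard had a mean of 25.7 ± 3.42 FPKM in villus EC and 196 ± 58.0 FPKM in crypt EC (-2.85 ± 0.21 (SE), adjusted p = 1e-07). Nlrp6 (1.022 ± 0.0684 FPKM in villus EC, 27.2 ± 4.93 FPKM in crypt EC; -3.78 ± 0.43 (SE), adjusted p = 1e-05) and Ripk3 (0.838 ± 0.355 FPKM in villus EC, 9.65 ± 2.95 FPKM in crypt EC; -2.52 ± 0.19 (SE), adjusted p = 1.2e-07) were lower in the villus too. Casp4 (log2 fold change -1.78), Nod1 (-1.72), Tlr2 (-1.09) and Casp1 (-0.74) followed in the same direction, as did Casp12 (-1.17), whose call was lost with 5 added before log2 (-0.34, adjusted p = 0.051). These 8 genes were lower in every villus EC library than in any crypt EC library. Paneth markers, summed over 9 genes, were at 299 to 645 FPKM in villus EC and 6923 to 10197 FPKM in crypt EC. Goblet markers (10588 to 14673 and 2408 to 3653 FPKM) and absorptive enterocyte markers (1717 to 2675 and 411 to 1283 FPKM) went the other way. The part of cells with these markers in the site differences within EC was not tested.

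Higher in villus EC than in crypt EC were Gsdma (3.20 ± 0.56 (SE), adjusted p = 0.00052), Gsdme (1.22 ± 0.34 (SE), adjusted p = 0.014), Naip5 (0.97 ± 0.32 (SE), adjusted p = 0.037), Naip2 (0.73 ± 0.17 (SE), adjusted p = 0.0041), Casp6 (0.60 ± 0.17 (SE), adjusted p = 0.015) and Casp8 (0.53 ± 0.13 (SE), adjusted p = 0.006). None of the 6 overlapped between sites. The calls of Gsdme (adjusted p = 0.054) and Casp6 (adjusted p = 0.052) were lost without crypt EC replicate 1, and that of Casp6 also with libraries scaled to the same total (0.39, adjusted p = 0.14). The call of Naip5 was lost without crypt EC replicate 1, 2, 3 or 4 or villus EC replicate 1, 2 or 3 (adjusted p = 0.053 to 0.097).

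Within epi cells 20 of the 39 genes were called between sites, 9 higher and 11 lower in the villus, beside 55% of all genes, 19.6% higher and 35.4% lower. Without overlap, 6 lay above and 12 below crypt epi, beside 48.3% of all genes, 16.6% above and 31.7% below. With libraries scaled to the same total the split was 5 higher and 15 lower. Without villus epi replicate 2, 18 of the calls were kept, 2 were lost and 7 were gained. Those gained included Ripk1 (0.81, adjusted p = 3.6e-06) and Tlr1 (-1.08, adjusted p = 0.0048). The shares over all genes are not given for that fit or for the scaled one. Gsdmd had the largest positive log2 fold change, with 746 ± 221 FPKM in villus epi and 62.9 ± 9.97 FPKM in crypt epi (3.51 ± 0.20 (SE), adjusted p = 9.3e-10), followed by Nlrp9b (2.86 ± 0.32 (SE), adjusted p = 2e-06). Pycard had the most negative one, with 67.6 ± 18.4 FPKM in villus epi and 1008 ± 147 FPKM in crypt epi (-3.91 ± 0.21 (SE), adjusted p = 5.4e-10). Casp2 (log2 fold change -2.37), Aim2 (-2.36) and Nod1 (-1.50) were lower in villus epi as well. Without villus epi replicate 2 the value for Casp2 was -1.53 (adjusted p = 4.5e-08). Gsdma was higher in villus epi (1.60 ± 0.56 (SE), adjusted p = 0.025), a call lost without crypt epi replicate 1 or villus epi replicate 2 (adjusted p = 0.051 to 0.054), with 5 added in place of 1 before log2 (0.55, adjusted p = 0.32) and with libraries scaled to the same total (1.35, adjusted p = 0.055).

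Whether EC and epi differed by the same amount at both sites was tested as an interaction, the villus log2 fold change minus the crypt one. It was called for 14 of the 39 genes, 7 positive and 7 negative, beside 42.9% of all genes, 26.9% positive and 16% negative. Without villus epi replicate 2, 11 were positive and 14 negative, beside 37% and 24.3% of all genes in the same fit, and these included all 14 calls made with it. Gsdmd had the largest interaction (-4.02 ± 0.28 (SE), adjusted p = 4.9e-08), being higher in crypt EC and lower in villus EC than in the epi cells of the same site. Nlrp9b changed side in the same sense (-2.56 ± 0.46 (SE), adjusted p = 0.00035). For Casp4 (-2.94 ± 0.47 (SE), adjusted p = 0.00013), Nlrp6 (-2.74 ± 0.61 (SE), adjusted p = 0.0021) and Ripk3 (-2.10 ± 0.26 (SE), adjusted p = 1.4e-05) the lower level in EC was more pronounced in the villus, although the Nlrp6 call was lost with 5 added before log2 (-1.43, adjusted p = 0.052).

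Interactions of the other sign came from different patterns. Aim2 was called higher in EC in the villus and not in the crypt (2.96 ± 0.33 (SE), adjusted p = 3.9e-06), and Pycard was lower in EC by a smaller margin in the villus than in the crypt (1.06 ± 0.30 (SE), adjusted p = 0.0093). Gsdmc2 and Gsdmc4, near 0 FPKM in both villus groups, were among the 7 positive calls and passed the filter through crypt epi only. Casp2 (2.16 ± 0.78 (SE), adjusted p = 0.036) and Ripk4 (2.04 ± 0.57 (SE), adjusted p = 0.0094) had smaller interactions without villus epi replicate 2, namely 1.32 (adjusted p = 1.3e-05) and 1.43 (adjusted p = 1.6e-07). The Casp2 call was lost without crypt EC replicate 1, 2 or 3, crypt epi replicate 1, 2 or 3 or villus EC replicate 1, 2, 3 or 4 (adjusted p = 0.054 to 0.062), with 0.1 added before log2 (adjusted p = 0.075) and with median-ratio scaling (adjusted p = 0.062). The interaction of Gsdma, 1.59, was not called (adjusted p = 0.12), and without villus epi replicate 2 it was 1.88 (adjusted p = 0.049).

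**Figure D4:**
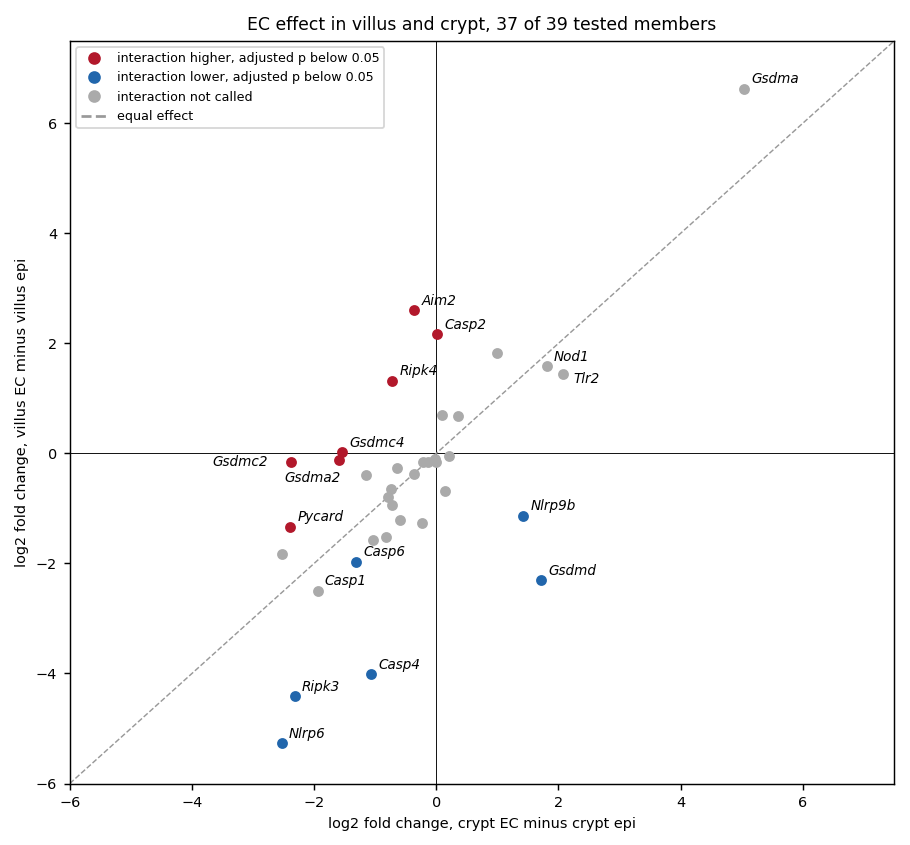
Log2 fold change of EC over epi in the villus (y axis) against that in the crypt (x axis) for 37 of the 39 tested genes, with the dashed line where both are equal and colour for the sign of a called interaction. Gsdmd lies at 1.71 in the crypt and -2.31 in the villus, and Aim2 at -0.36 and 2.60.

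The genes around these sensors were followed in 6 further lists, whose shares stand beside those of all tested genes, 23.2% higher and 20% lower in crypt EC and 40.6% higher and 21.6% lower in villus EC. The inflammasome products and partners had 14 tested genes, with 2 higher and 2 lower in crypt EC (14.3% each). In villus EC 4 were higher (28.6%) and 3 lower (21.4%), each share under that of all genes. Il18, the cytokine matured by caspase-1 and known from the gut epithelium, had a mean of 5.45 FPKM in crypt EC, against 77.5 FPKM in crypt epi (-3.54 ± 0.29 (SE), adjusted p = 1.1e-07), and 6.83 FPKM in villus EC, against 107 FPKM in villus epi (-3.82 ± 0.29 (SE), adjusted p = 1.7e-08). Il33, an alarmin, had a mean of 0.0516 FPKM in villus EC, against libraries at 22.2, 13.4, 33.7 and 33.2 FPKM in villus epi (-4.58 ± 0.24 (SE), adjusted p = 2.1e-10). Ninj1, which ruptures the membrane after pore formation, was higher in EC in the crypt (0.73 ± 0.20 (SE), adjusted p = 0.0072) and in the villus (1.53 ± 0.20 (SE), adjusted p = 6.7e-06). Nek7, a cofactor of Nlrp3, was higher in villus EC (1.67 ± 0.23 (SE), adjusted p = 1e-05).

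Of 13 tested genes of nucleic acid sensing, 0 were higher at either site, 4 were lower in crypt EC (30.8%) and 8 in villus EC (61.5%) by limma. At an unadjusted p under 0.05, 1 was higher in crypt EC and 0 in villus EC. Zbp1, a nucleic acid sensor that engages Ripk3, had 4.32 FPKM in villus EC, against 49.9 FPKM in villus epi (-3.22 ± 0.29 (SE), adjusted p = 1.1e-07). Rigi, the cytosolic RNA helicase, had 7.83 FPKM in villus EC, against 78.3 FPKM in villus epi (-2.68 ± 0.45 (SE), adjusted p = 9e-05). The kinases Tbk1 (-1.72) and Ikbke (-1.47), which activate interferon regulatory factors, were also lower in villus EC. The median log2 fold change of the 13 was -0.41 in the crypt and -0.90 in the villus, beside 0.05 and 0.33 over all genes.

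Death receptors and their complexes gave 15 tested genes, 0 of them higher at either site, 3 lower in crypt EC and 7 lower in villus EC (46.7%) by limma. The lower share in the crypt equalled the 20% of all genes. At an unadjusted p under 0.05, 0 were higher at either site. Fas, the receptor of Fas ligand, had 0.595, 0.831, 0.278 and 0.491 FPKM in villus EC, against 69.3, 78.6, 53.5 and 53.9 FPKM in villus epi (-5.38 ± 0.19 (SE), adjusted p = 5.1e-12), and was lower in crypt EC too (-2.53 ± 0.19 (SE), adjusted p = 4e-08). Tnfsf10, which encodes TRAIL, was lower in EC in the crypt (-1.34 ± 0.23 (SE), adjusted p = 0.00023) and in the villus (-3.40 ± 0.23 (SE), adjusted p = 4.8e-09). Cflar, the inhibitor of caspase-8, was lower in villus EC (-1.80 ± 0.39 (SE), adjusted p = 0.00082), as was Tnfrsf10b, the mouse receptor of TRAIL (-1.69 ± 0.31 (SE), adjusted p = 0.00022).

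Of 15 tested genes of the BCL-2 family, crypt EC had 5 higher (33.3%) and 3 lower (20%), and villus EC had 6 higher (40%) and 4 lower (26.7%). Bok, a pore-forming relative of Bax, had 112 FPKM in crypt EC, against 16.9 FPKM in crypt epi (2.68 ± 0.24 (SE), adjusted p = 3e-07), and Bax itself was higher in villus EC (1.52 ± 0.11 (SE), adjusted p = 7.1e-09). Pmaip1, which encodes the trigger Noxa, was lower in EC in the crypt (-1.81 ± 0.23 (SE), adjusted p = 1.1e-05) and in the villus (-1.56 ± 0.23 (SE), adjusted p = 2.3e-05). Apoptosome components, their inhibitors and caspase targets gave 14 tested genes, 3 of them higher and 5 lower in crypt EC (21.4% and 35.7%), with 3 higher and 6 lower in villus EC (21.4% and 42.9%). Parp1, a substrate of executioner caspases that acts in DNA repair, had 379.6, 389, 365 and 379 FPKM in crypt EC, against 39.9, 39.5, 41.9 and 35.5 FPKM in crypt epi (3.24 ± 0.28 (SE), adjusted p = 1.8e-07), and was higher in villus EC as well (4.26 ± 0.28 (SE), adjusted p = 3e-09). Aifm1, a mitochondrial flavoprotein released in apoptosis, was lower in EC in the crypt (-1.38) and in the villus (-2.22), as were Birc5, which encodes survivin (-2.07 and -2.17), and Xiap, a caspase inhibitor (-0.76 and -2.19).

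Of the Toll-like receptor adaptors and NF-kB genes, 31 were tested, and crypt EC had 3 higher (9.68%) and 6 lower (19.4%), the lower share close to that of all genes. In villus EC 8 were higher and 10 lower (25.8% and 32.3%). Cd14, the co-receptor for lipopolysaccharide, was lower in EC in the crypt (-1.44 ± 0.45 (SE), adjusted p = 0.017) and in the villus (-2.20 ± 0.45 (SE), adjusted p = 0.00055). Ly96, the other co-receptor of Tlr4, was higher in villus EC (2.68 ± 0.37 (SE), adjusted p = 1.1e-05). Relb, a subunit of NF-kB, was lower in EC in the crypt (-0.98) and in the villus (-2.28), while Nfkbiz, an atypical inhibitor of NF-kB, was higher in crypt EC (1.07).

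**Figure D5:**
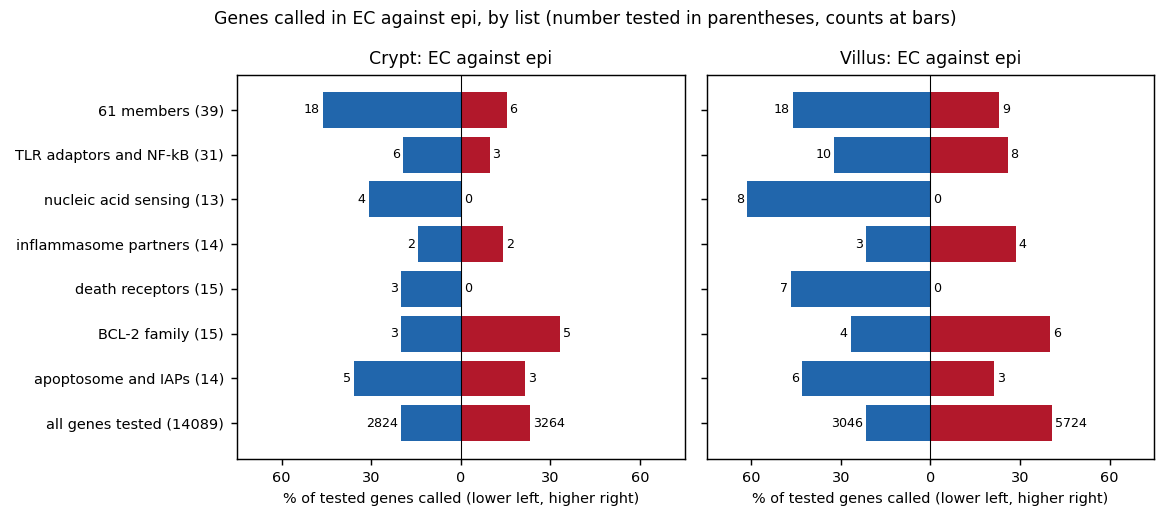
Share of the tested genes of each family and list that were called lower (left) and higher (right) in EC, in the crypt and in the villus, with all tested genes for comparison and the number tested in parentheses. Death receptors and nucleic acid sensing have no bar to the right at either site, while all tested genes have 23.2% called higher in the crypt and 40.6% in the villus.

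Markers of leukocytes moved with part of these results. Of 13 myeloid genes, summed, the level was 21.5 to 29.8 FPKM in villus EC, against 62.5 to 124 FPKM in villus epi, and 23.2 to 30.9 FPKM in crypt EC, against 43.5 to 50.1 FPKM in crypt epi. Of the 8 tested, 6 were lower and 1 higher in villus EC, and 2 were lower in crypt EC. Most of that sum came from Lyz2, S100a8 and S100a9, while the macrophage genes Adgre1 and Csf1r were at most 0.214 and 0.443 FPKM in any library. Lyz2 was at 21.995, 22.2, 1.84 and 2.39 FPKM in crypt EC and 20.7, 17.8, 2.22 and 2.13 FPKM in villus EC in replicates 1 to 4. The T cell and intraepithelial lymphocyte genes, 11 of 13 with an entry, summed to 4.43 to 6.33 FPKM in villus EC, against 3.70 to 34.9 FPKM in villus epi, and to 5.30 to 6.05 FPKM in crypt EC, against 4.41 to 6.69 FPKM in crypt epi. Cd3e was at most 0.864 FPKM in any library, and 0 of the 3 tested genes were called by limma in any of the 5 contrasts. At an unadjusted p under 0.05, 1 of the 3 was lower in the villus in EC, and 1 was higher in villus than in crypt epi cells. Stromal and endothelial markers, summed over 10 genes, were at 20.5 to 36.9 FPKM in crypt EC, against 2.83 to 4.84 FPKM in crypt epi. In the villus they were at 16.5 to 25.1 FPKM in EC and 6.29 to 162 FPKM in epi, with a median of 7.79 FPKM in epi. The part of leukocytes and of stromal or endothelial cells in the sensor and caspase differences between EC and epi was not tested.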

How the data were processed

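The deposited table holds gene-level FPKM values that the authors made with kallisto and sleuth after bcl2fastq 2.20, on mouse build mm10, per the submitters' processing notes. The annotation release and the scaling between libraries are not stated there. Libraries were full-length cDNA from 5000 sorted cells, per the labels' protocols. Groups and replicate numbers were taken from the sample titles.

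Here 1 was added to the FPKM values before log2. Genes at 1 FPKM or more in at least 4 of 16 libraries were tested (14089 of 20072; 5983 left out). Limma 3.58.1 in R 4.3.3 fitted 4 group means without a replicate block, with eBayes and a variance trend, and 5 contrasts, two-sided, with Benjamini-Hochberg adjustment over all tested genes within each contrast. The method was tested on simulated data. Tables and figures used pandas 2.3.3 and matplotlib 3.10.9 in Python 3.11.15. Gene positions came from GENCODE for mm10, and promoters from RefSeq.

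Group values are means ± SD over 4 libraries. The genes and the lists of neighbouring pathways (Toll-like receptor adaptors and NF-kB, nucleic acid sensing, inflammasome partners, BCL-2 family, apoptosome and its inhibitors, death receptors) were chosen with earlier results of these data known. Values per library were to be given for up to 8 called genes per contrast with the largest change and at least 5 FPKM in the higher group, and for 34 fixed genes whatever their values; where space required, a range is given instead. Of the 61 genes, 2 enter the counts but are not reported here. From each further list a few called genes are named, up to 4 per contrast. Alternatives comprised other pseudocounts (0.1 and 5), no filter and a filter at 5 FPKM, median-ratio scaling, scaling to the same total, no variance trend, fits of the compared groups only, replicate blocks, and leaving out each library.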

Additional observations from a re-analysis of the deposited data

Results flagged for a closer look

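The effect of EC over epi differed between villus and crypt for 14 of the 39 tested genes, beside 42.9% of all genes. These calls are by the interaction term of the limma fit at an adjusted p below 0.05. Values are the villus log2 fold change minus the crypt one. Negative differences included those of Gsdmd (-4.02), Casp4 (-2.94), Nlrp6 (-2.74), Nlrp9b (-2.56), Ripk3 (-2.10) and Casp6 (-0.66). It was positive for Aim2 (2.96), Gsdmc2 (2.21), Casp2 (2.16), Ripk4 (2.04), Gsdmc4 (1.56), Gsdma2 (1.48) and Pycard (1.06). Gsdmc2 and Gsdmc4 passed the filter through the 4 crypt epi libraries only, so their differences are a description. The calls of 3 of these genes depended on single libraries: that of Casp6 was lost without crypt EC replicate 2, 3 or 4, crypt epi replicate 1 or 3 or villus EC replicate 1, 2 or 3 (adjusted p = 0.053 to 0.072), that of Gsdma2 without crypt EC replicate 1, crypt epi replicate 1, villus EC replicate 1 or 2 or villus epi replicate 3 or 4 (adjusted p = 0.051 to 0.056), and that of Casp2 without crypt EC replicate 1, 2 or 3, crypt epi replicate 1, 2 or 3 or villus EC replicate 1, 2, 3 or 4 (adjusted p = 0.054 to 0.062).

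In 19 of 136 groups of 4 libraries the highest or lowest library lay apart from the other 3, with a gap over the group's range above Dixon's 95% critical value for 4 samples. Chance gives about 1 in 20 groups. Villus epi replicate 2 was the library in 7 of the 19, for Casp12 (gap over range 0.874), Gsdma (0.841), Gsdma2 (0.834), Gsdme (0.889), Ripk1 (0.834), Ripk2 (0.858) and Ripk4 (0.902). It was the low library for Ripk1 and Ripk4 and the high one for the other 5. Crypt EC replicate 1 was the library in 5, for Casp12 (0.834), Casp4 (0.950), Gsdma (0.925), Mlkl (0.922) and Ripk4 (0.867), and was low for Gsdma and high for the other 4. Crypt epi replicate 3 was high for Casp4 (0.897) and Gsdmc2 (0.888). Single groups were set apart for Aim2 in villus epi replicate 1 (0.914), Casp1 in villus EC replicate 1 (0.890), Gsdmd in villus EC replicate 4 (0.835), Nlrx1 in crypt epi replicate 4 (0.903) and Ripk2 in crypt EC replicate 3 (0.897).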

How the results depend on the processing

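Counts of the 39 tested genes called in each direction stayed within 1.5 times of the reported ones except as given here and with a block by library number. That block moved the genes higher in villus EC than in villus epi, and both directions of villus EC against crypt EC, by more. Its counts are given below. Scaled to the same total, 11 genes were lower in crypt EC than in crypt epi (9 higher), and 5 were higher in villus epi than in crypt epi (15 lower). Fitting the compared groups only gave 10 genes higher in villus EC than in crypt EC. Leaving out 1 library gave 4 to 10 genes higher in villus EC than in crypt EC, 5 to 11 positive interactions and 6 to 14 negative ones, the highest of each without villus epi replicate 2. Without that library and crypt EC replicate 1 together, a choice made after seeing the data, 10 were higher in villus EC than in crypt EC, with 12 positive and 13 negative interactions. The counts of this section are given without the shares over all genes. Of single genes, Casp8 turned to 0.17 (crypt) and 0.25 (villus) when scaled to the same total. The interaction of Myd88 turned to -0.40 without both libraries, and leaving out 1 library gave -0.44 (villus epi replicate 2) to 0.28; the cause was not tested.

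Deviations from group means did not single out libraries with the same number. Of 24 pairs with the same title number, 4 correlated above 0.1 (range -0.27 to 0.17), beside 13 of 72 other pairs. For library numbers it was 1 of 10 pairs (-0.27 to 0.14), beside 16 of 86 others. Of 16 libraries, 3 correlated best with their own title number. Such correlations cannot exclude that libraries of different groups came from the same mouse, and the labels do not say. A replicate block by title number gave 6 higher and 18 lower genes in crypt EC, 9 and 18 in villus EC, 6 and 9 in villus EC over crypt EC, 9 and 10 in villus epi over crypt epi, and 7 and 7 interactions. A block by library number gave 6 and 15, 5 and 13, 1 and 4, 9 and 8, and 5 and 7 in the same sequence. In villus EC over crypt EC, the limma calls lost with that block included Casp1, Casp12, Casp4, Casp6, Casp8, Gsdme, Naip2, Naip5 and Tlr2 (adjusted p = 0.080 to 0.25). Since depth is unknown, no limit of detection can be given for genes near 0.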
